A study of Mus musculus with 4 samples.

Results

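Genes of the secretory cells of the airway were read in RNA from sorted mouse lung tumour cells. They are 6 in number, Scgb1a1, Scgb3a1, Scgb3a2, Bpifa1, Cyp2f2 and Reg3g, chosen by name as products of club and goblet cells, and all 6 were found among the 17746 gene symbols of the authors' table. All mice carried the alleles Rb1fl/fl and Trp53fl/fl, floxed forms of tumour suppressor genes whose loss gives a model of small cell lung cancer, and the knock-in autophagy reporter GFP-LC3-RFP-LC3ΔG. Spontaneous lung tumours were digested, red blood cells were removed, and live cells positive for EpCAM, an epithelial surface protein, and for RFP were sorted into 2 groups: GFP-negative cells, with 2 libraries, and GFP-positive cells, with 2 libraries. The groups share their genotype and gates and differ in the GFP gate. Autophagy degrades the GFP part of the probe and leaves the RFP part, so the design text names the GFP-negative cells as those of high autophagic flux, while the titles of the samples say the reverse. The groups are therefore called by GFP alone and no direction is drawn for flux. The labels name neither the Cre driver nor the age of the mice, nor whether each library came from its own mouse. The spread between these libraries may thus be technical. The p-values draw only on that spread, pooled over many genes, so a low p-value need not mean that a gene's libraries were alike.

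Club cells are the main secretory cells of the mouse airway, and goblet cells are their mucus-making neighbours. Both release small proteins and antimicrobial factors into the fluid that lines the airway, and club cells also carry enzymes that oxidise inhaled chemicals. Small cell lung cancer is a neuroendocrine tumour, and secretory products are not among its defining markers.

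The libraries differed in more than the GFP gate. They held 51994432 to 73997175 counts, and 6063 of the symbols had counts in GFP-positive replicate 1 against 15710 to 17617 in the other 3 libraries. That library, which stands apart, also held hepatocyte genes: its summed level of the 5 found of 14 such genes was 31865 CPM, against 140 to 1623 CPM in the others. In those others Alb, Apoa2 and Cyp2e1 were at 0 to 3.09 CPM, so other genes of the list made up most of the sums. Alb, Apoa2 and Cyp2e1 were among the genes called lower in the GFP-negative group. CPM here are counts scaled to the size of the library after correction with trimmed mean of M-values (TMM) factors. Epcam was found in every library, with 255 and 88.9 CPM in GFP-negative and 94.0 and 65.9 CPM in GFP-positive cells. Rb1 had 8.996 and 0 CPM in GFP-negative and 0 and 4.06 CPM in GFP-positive cells, and Trp53 had 13.1 and 4.37 CPM in GFP-negative and 20.4 and 62.6 CPM in GFP-positive cells; counts per gene cannot show recombined exons. Here and below, the values of a group are for its replicates 1 and 2 in that order.

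The 6 genes did not share 1 pattern over the libraries. Of them, Scgb1a1 alone was lower in both GFP-negative libraries than in both GFP-positive libraries. Bpifa1 and Reg3g were abundant in the replicate 2 library of each group and scarce in the replicate 1 library of each group. Scgb3a2 and Cyp2f2 were low in GFP-negative replicate 1 alone. Scgb3a1 was low in both replicate 1 libraries, like Bpifa1 and Reg3g but with smaller gaps. None of the 6 passed the quasi-likelihood test of edgeR (adjusted p = 1.0 for each, Benjamini-Hochberg over 16301 tested genes, threshold 0.05), where 16 genes, 0.0982% of those tested, were called. An unadjusted edgeR p under 0.05 was found for 505 genes, with Scgb1a1 as the 1 gene of the 6 among them. Every fitted log2 change below compares 2 libraries with 2, except where a library is said to be left out.

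**Figure D1:**
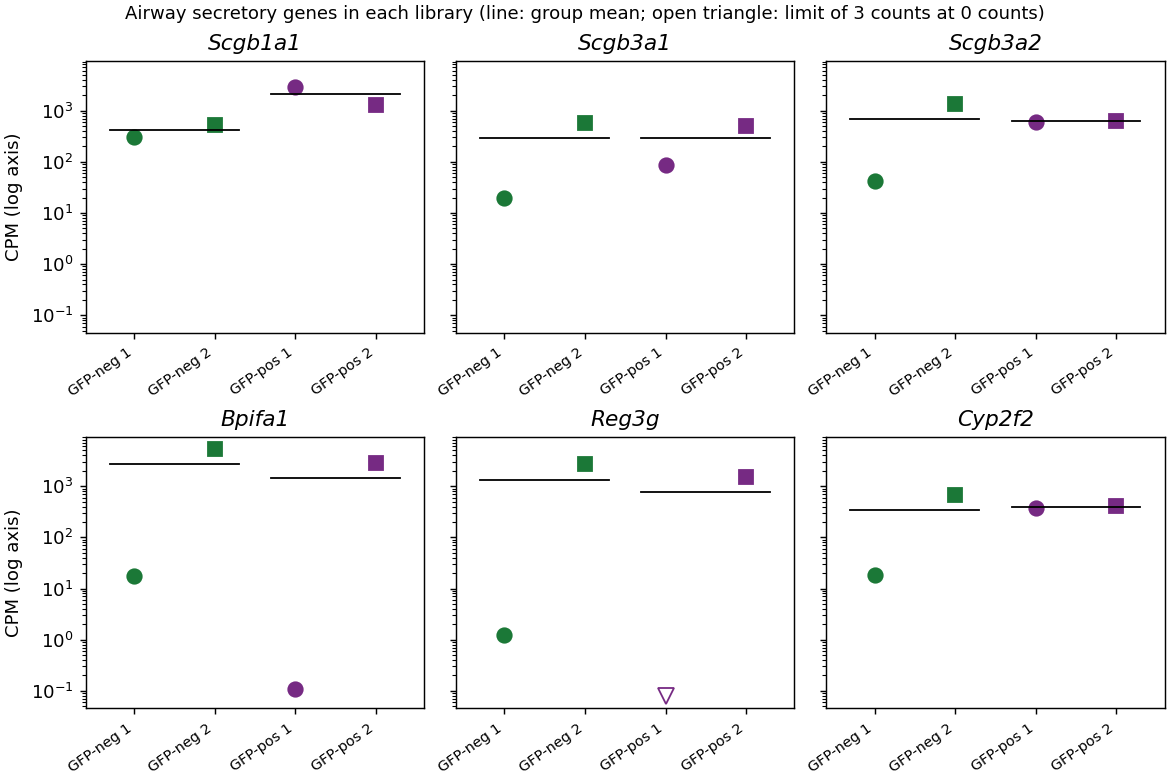
Level of each gene in CPM on a log axis, in each GFP-negative (green) and GFP-positive (purple) library; circles are replicate 1, squares replicate 2, lines the group means, and the open triangle marks 0 counts, drawn at the limit of 3 counts. Scgb1a1 is at 301 and 529 CPM in GFP-negative libraries, under the 2884 and 1264 CPM of the GFP-positive libraries, while Bpifa1 and Reg3g are low in both replicate 1 libraries.

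The secretoglobins are small secreted proteins, and Scgb1a1, also called club cell secretory protein or uteroglobin, is the classic marker of club cells. The gene lies on chromosome 19 from 9083636 to 9087958 on the minus strand (mm10; positions from GENCODE M21), with 3 exon blocks. Its level was 301 and 529 CPM in GFP-negative libraries and 2884 and 1264 CPM in GFP-positive libraries. Both GFP-negative libraries thus lay below both GFP-positive libraries. The fitted log2 change, GFP-negative minus GFP-positive, was -2.32 ± 1.13 (SE), with an edgeR adjusted p = 1.0, so the difference did not pass. Groups that did not overlap, with the GFP-negative libraries lower, were found for 6.63% of all tested genes, and in either direction for 31.8%. In the deposited FPKM values (fragment numbers corrected for the length of the gene and the size of the library), Scgb1a1 had 854 and 924 in the GFP-negative libraries, against 3912 and 2153 in the GFP-positive libraries. In bulk RNA, fewer cells of a type and less RNA per cell cannot be told apart.

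The size of the Scgb1a1 difference depended on the libraries. It was -1.61 ± 2.16 without GFP-positive replicate 1 and -2.80 ± 1.86 without GFP-positive replicate 2. Leaving out GFP-negative replicate 1 or 2 gave -1.97 ± 1.06 or -2.71 ± 0.92. As its groups do not overlap, leaving out a library could hardly turn the sign. The sign was negative under all 16 alternative settings, with no call in any (adjusted p from 0.195 to 1.0 by edgeR, DESeq2 or limma). Markers of macrophages were also lower in the GFP-negative libraries, with all 19 measured members below 0 in the fit and Chil3, Lyz2 and Ctss called, and the list summed to 1260 and 23101 CPM there against 122500 and 71085 CPM in GFP-positive libraries. Without GFP-positive replicate 1 all 19 were still below 0 and 0 were called, and DESeq2's Wald test and limma-voom on all 4 libraries called 0 of them as well. Of these markers 2 had no counts in GFP-negative replicate 2 and 2 in GFP-positive replicate 1. Their part in the Scgb1a1 difference was not tested.

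Scgb3a1, a secretoglobin of airway epithelium, lies on chromosome 11 from 49663610 to 49665118 on the plus strand. It had 19.6 and 564 CPM in GFP-negative libraries and 87.8 and 501 CPM in GFP-positive libraries. The groups overlapped, and within each the replicate 2 library was the higher, by 28.8-fold in GFP-negative and 5.71-fold in GFP-positive cells. The fitted log2 change was -0.01 ± 1.80 (SE).

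Scgb3a2, a secretoglobin made by club cells, lies on chromosome 18 from 43764289 to 43767399 on the plus strand. Its level was 42.9 and 1326 CPM in GFP-negative libraries and 598 and 629 CPM in GFP-positive libraries. The GFP-positive values lay between the GFP-negative ones, which differed 30.9-fold, and the fitted log2 change was 0.16 ± 1.36 (SE). The GFP-negative mean thus rested on replicate 2. Leaving that library out gave -3.79 ± 2.22 (edgeR adjusted p = 1.0), and leaving out GFP-negative replicate 1 gave 1.11 ± 1.34. Marco, a scavenger receptor of macrophages reported to bind this protein, is not among the symbols of the table and was not analysed here.

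Cyp2f2 encodes a cytochrome P450 of mouse club cells that oxidises naphthalene into products toxic to these cells. It lies on chromosome 7 from 27119909 to 27133660 on the plus strand, with 11 exon blocks. Its RNA measured 18.5 and 660 CPM in GFP-negative cells and 383 and 402 CPM in GFP-positive cells. As with Scgb3a2, the GFP-positive values lay close together, between GFP-negative values that were 35.6-fold apart. The log2 change was -0.21 ± 1.67 (SE). The antisense gene Gm15883 overlaps Cyp2f2 and shares 142 bases with its transcript, and since no strand marking is described for the library kit, reads from it could have been counted here. Gm15883 is not among the symbols of the table. The other 5 genes had no overlapping annotated gene, and no other gene's transcript matched theirs at 90% identity over 100 bases or more.

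Bpifa1 encodes a secreted protein of upper airway epithelium, known as SPLUNC1, with antimicrobial and surface-active properties. Reg3g encodes a secreted C-type lectin, known from the intestine as a factor that binds and kills Gram-positive bacteria. Their levels moved together over the libraries more closely than either did with the other 4 genes, as the distances below show. Bpifa1 had 17.8 and 5332 CPM in GFP-negative libraries and 0.11 and 2845 CPM in GFP-positive libraries. GFP-positive replicate 1 held 4 Bpifa1 counts, where GFP-positive replicate 2 held 181324. Reg3g had 1.25 and 2677 CPM in GFP-negative libraries and 0 and 1515 CPM in GFP-positive libraries. At its 0 counts in GFP-positive replicate 1, the limit of 3 counts equals 0.080 CPM, for counting error only.

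The replicate 2 libraries thus held nearly all counts of both genes, whichever the GFP gate. Within GFP-negative cells, replicate 2 was 300-fold higher than replicate 1 for Bpifa1 and 2139-fold higher for Reg3g. Within GFP-positive cells, replicate 2 was 26680-fold higher for Bpifa1 and at least 18900-fold higher for Reg3g, taking 3 counts in replicate 1 as the limit. Between the replicate 2 libraries, by contrast, GFP-negative exceeded GFP-positive by 1.87-fold for Bpifa1 and 1.77-fold for Reg3g. The fitted log2 changes were 0.91 ± 0.91 and 0.82 ± 1.15 (SE). The SE of Bpifa1 is the smallest of the 6 although its libraries within a group were far apart. edgeR moderates the spread across genes, so a small SE does not show agreement between libraries.

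A gap of this size between the GFP-positive libraries was seen in few abundant genes. Of 119 tested genes at 1000 CPM or more in GFP-positive replicate 2, 3 were under 1 CPM in GFP-positive replicate 1 (2.5%), and these were Bpifa1, Reg3g and the chemokine gene Ccl7. In GFP-negative cells, 7 of 135 genes at 1000 CPM or more in replicate 2 were under 20 CPM in replicate 1 (5.2%). They were Bpifa1, Reg3g, Ccl7, the immunoglobulin segments Igkv4-61 and Igkv6-23, Ms4a7 and Wfdc17. Of the same 135 genes, 13 were under 1 CPM in GFP-positive replicate 1 (9.6%). Those 13 were Bpifa1, Reg3g, Ccl7, Igha, Igkv4-61, Igkv6-23, Jchain, Atp6v1g1, Erh, H2az2, Nme1, Scg5 and Uqcrc1. These thresholds were chosen after the values were seen.

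Upstream sequences are shown for the pair that moved together, Bpifa1 and Reg3g, beside Cyp2f2 and Scgb3a1. Cyp2f2 had another pattern, while Scgb3a1 was also low in both replicate 1 libraries, with smaller gaps. They come from RefSeq (GRCm38.p6, the assembly of mm10) and run 5′ to 3′ on the strand of the gene up to the base before the start. Capitals mark letters typical of FOXA factors (TGTTTAC or TGTTTGC) or of NKX2-1 (CAAGTG), searched on both strands. FOXA factors and NKX2-1 are regulators of lung epithelium known to act on secretory genes.
Bpifa1, chr2:154142630-154142879, plus strand: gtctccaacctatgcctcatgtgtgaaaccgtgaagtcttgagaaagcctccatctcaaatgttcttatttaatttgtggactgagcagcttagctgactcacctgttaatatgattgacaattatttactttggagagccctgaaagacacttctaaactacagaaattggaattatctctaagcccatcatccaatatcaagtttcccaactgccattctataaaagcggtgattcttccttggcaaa
Reg3g, chr6:78468875-78469124, minus strand: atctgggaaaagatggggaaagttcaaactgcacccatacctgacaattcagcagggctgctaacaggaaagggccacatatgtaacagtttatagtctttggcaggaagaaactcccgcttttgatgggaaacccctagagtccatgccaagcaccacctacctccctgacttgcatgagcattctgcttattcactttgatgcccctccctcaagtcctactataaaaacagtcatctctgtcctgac
Cyp2f2, chr7:27119705-27119908, plus strand: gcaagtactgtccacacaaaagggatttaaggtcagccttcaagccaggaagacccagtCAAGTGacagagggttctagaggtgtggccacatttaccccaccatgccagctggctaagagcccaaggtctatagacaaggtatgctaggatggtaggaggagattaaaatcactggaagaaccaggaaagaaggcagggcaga
Scgb3a1, chr11:49663345-49663594, plus strand: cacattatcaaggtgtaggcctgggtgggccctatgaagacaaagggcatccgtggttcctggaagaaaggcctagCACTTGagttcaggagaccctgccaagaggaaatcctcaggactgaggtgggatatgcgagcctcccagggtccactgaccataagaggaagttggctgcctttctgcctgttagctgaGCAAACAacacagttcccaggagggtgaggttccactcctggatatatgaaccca
The Cyp2f2 window stops at 204 bases, before the transcript start in GENCODE M21, and the others hold 250 bases. The Bpifa1 and Reg3g windows held none of the searched letters. Cyp2f2 held the NKX2-1 letters, from 191 bases upstream of the RefSeq start, which 9.9% of all promoters hold in a window of this length. Scgb3a1 held the NKX2-1 letters on the minus strand, from 174 bases upstream, and the FOXA letters TGTTTGC on the minus strand, from 55 bases upstream, with no overlap between them. In windows of 250 bases, 11.6% of 32851 RefSeq promoters held the NKX2-1 letters and 7.3% a FOXA motif. These matches are descriptions of the letters and not shown to be binding sites.

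Per length, the order of the 6 genes changed between libraries. In GFP-negative replicate 1, Scgb1a1 led with 854 FPKM, 13.0-fold above Scgb3a2 at 65.8 FPKM, and Reg3g was last at 0.79 FPKM. In GFP-negative replicate 2, Bpifa1 led with 2869 FPKM, followed by Scgb3a2 at 1253, Reg3g at 1053 and Scgb1a1 at 924 FPKM. In GFP-positive replicate 1, Scgb1a1 led with 3912 FPKM, 8.92-fold above Scgb3a2, and Bpifa1 and Reg3g were the last 2. In GFP-positive replicate 2, Scgb1a1 led with 2153 FPKM and Bpifa1 followed at 1493 FPKM. Scgb1a1 was thus the most abundant of the 6 per length in 3 of the 4 libraries, where it ranked 14 to 32 among all genes, and ranked 68 in GFP-negative replicate 2. Neighbours in this order, such as Reg3g at 581 and Scgb3a2 at 580 FPKM in GFP-positive replicate 2, had no replicate within their library to tell them apart. The FPKM ratio of Bpifa1 to Scgb1a1 was 0.018 and 3.105 in the GFP-negative libraries and 1.1e-05 and 0.69 in the GFP-positive libraries.

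**Figure D2:**
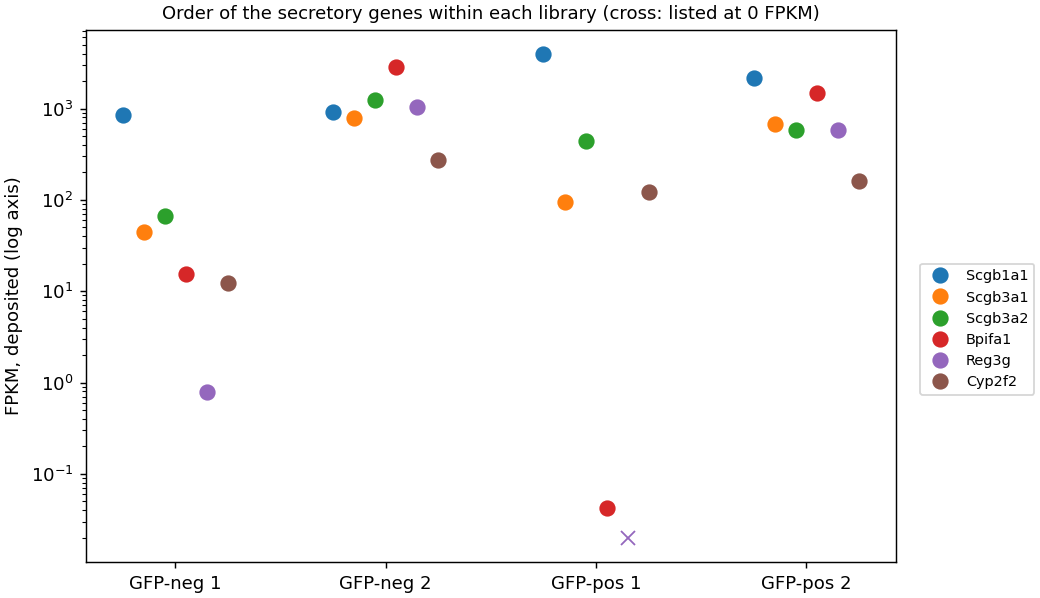
Deposited FPKM of the 6 genes in each library on a log axis; each colour is a gene, and the cross marks a value listed at 0. Scgb1a1 is the highest in every library except GFP-negative replicate 2, where Bpifa1 leads at 2869 FPKM.

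How alike the genes were was measured as the root mean square distance between their log2(CPM + 1) profiles, each centred on its own mean, over the 4 libraries. The 10193 other genes with a mean of at least 5 CPM were ranked by it, as a description with no test, since profiles over 4 libraries match by many routes. Scgb3a2 and Cyp2f2 were 0.23 log2 units apart, and each was the second nearest gene to the other. Bpifa1 and Reg3g were 1.08 apart, with Reg3g the second nearest to Bpifa1 and Bpifa1 the fourth nearest to Reg3g. Scgb1a1 was 1.58 or more from every other member. It was 5.65 and 5.57 from Bpifa1 and Reg3g, which ranked last and next to last among all candidates. This was not particular to Scgb1a1. Bpifa1 and Reg3g ranked 10177 and 10132 from Scgb3a2, and 10170 and 10080 from Cyp2f2. The distance is not scaled to the range of a gene.

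The nearest genes from elsewhere in the table differed by pattern. For Scgb1a1 they were Aldh3b1, an aldehyde dehydrogenase, at 0.068, Atp6ap1, an accessory subunit of the vacuolar proton pump, at 0.099, and Gsn, the actin-severing protein gelsolin, at 0.14. Atp6ap1 had 148 and 283 CPM in GFP-negative and 1694 and 634 CPM in GFP-positive cells. For Cyp2f2 and Scgb3a2 the nearest was Lgals1, which encodes galectin-1, at 0.11 and 0.20. Cxcl17, a mucosal chemokine, was the third nearest to Cyp2f2, at 0.33. For Scgb3a1 the nearest were Ifitm3, an interferon-induced antiviral protein, at 0.45 and Npc2, a lysosomal cholesterol carrier, at 0.51. For Bpifa1 the nearest was Ccl7 at 0.61 and the third nearest Ccl12 at 1.10, both genes of chemokines that draw monocytes, and Reg3g had the same 2 genes at 0.85 and 1.02, behind Igkv4-61 at 0.46. Ccl7 had 5.37 and 1653 CPM in GFP-negative libraries and 0 and 1133 CPM in GFP-positive libraries.

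**Figure D3:**
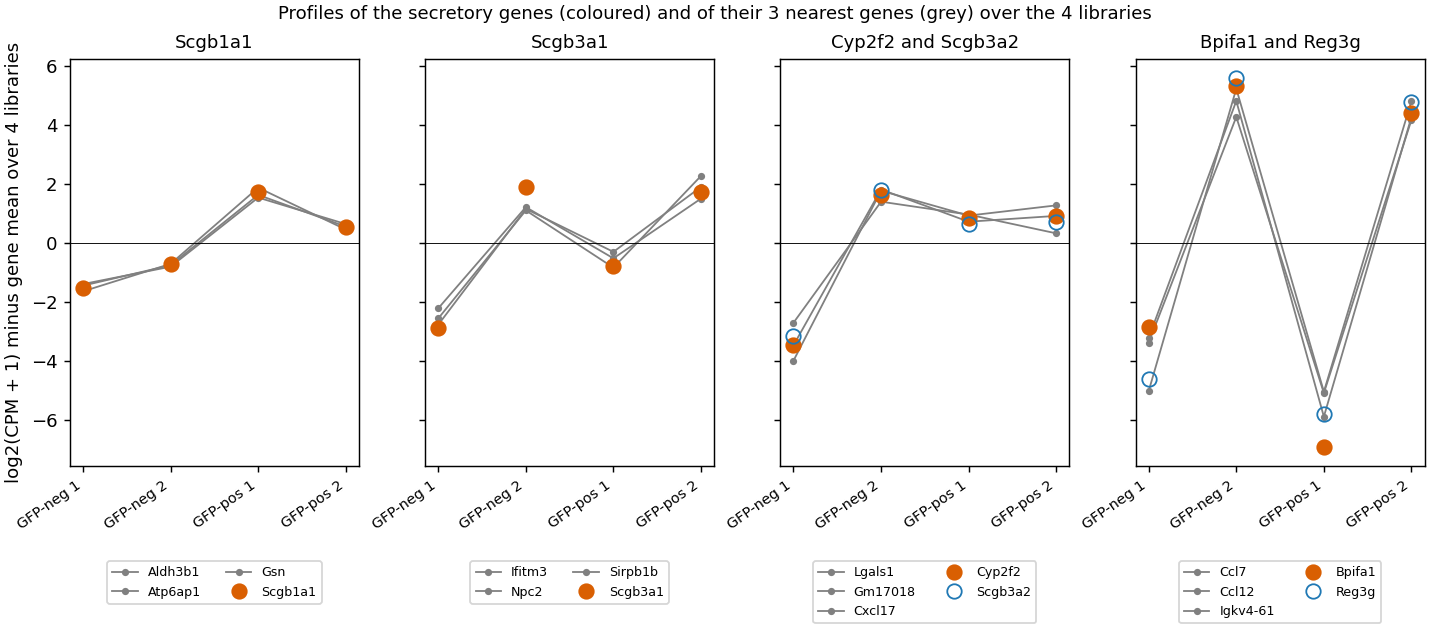
Profiles of the 6 genes (orange and blue) and of the genes nearest to each (grey) as log2(CPM + 1) minus the gene's mean over the 4 libraries. The Bpifa1 and Reg3g profiles alternate between the replicate numbers, whereas Scgb1a1 separates the GFP groups.

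Single libraries were compared as well. Between the replicate 2 libraries, GFP-negative against GFP-positive, the log2 difference was -1.26 for Scgb1a1, 0.17 for Scgb3a1, 1.08 for Scgb3a2, 0.91 for Bpifa1, 0.71 for Cyp2f2 and 0.82 for Reg3g. The middle 50% of 2092 genes with a mean of at least 100 CPM lay between -0.76 and 0.83 there, with a median of 0.13. Between the replicate 1 libraries the log2 difference was -3.26 for Scgb1a1, -2.16 for Scgb3a1, -3.80 for Scgb3a2 and -4.37 for Cyp2f2. It was 7.38 for Bpifa1, and Reg3g was at least 15.6-fold higher in GFP-negative replicate 1, against the limit of 3 counts. The corresponding median over 1916 genes was -1.61, with quartiles of -3.11 and -0.34. Single libraries give no replicate error, so these are differences between libraries and not between the groups.

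Leaving out a library changed the sign for most of the genes. Without GFP-negative replicate 2, all 6 were below 0 and Bpifa1 was called, with a log2 change of -6.34 ± 1.45 (SE, edgeR adjusted p = 0.00408) where 0.351% of 16805 tested genes were called. Without GFP-positive replicate 2, Bpifa1 and Reg3g were called in the other direction, at 14.59 ± 4.37 (edgeR adjusted p = 0.0135) and 19.57 ± 5.47 (edgeR adjusted p = 0.0112), where 45.2% of tested genes were called. The Reg3g value there is set against a lone GFP-positive library with 0 counts, so its size depends on the small count that the fit adds. Without GFP-positive replicate 1, the library that stands apart, they were at -0.09 ± 2.98 and -0.18 ± 2.57, and 0 of the 6 were called, where 0.00587% of tested genes were. Bpifa1 was called without GFP-negative replicate 2 although its lone GFP-negative value, 17.8 CPM, lay between the GFP-positive values of 0.11 and 2845 CPM. That call thus does not show that the groups separate. In all these refits the lone library of a group is assumed to vary like the other group. Scgb1a1 was the 1 gene of the 6 that stayed below 0 in each, which follows from its groups not overlapping.

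**Figure D4:**
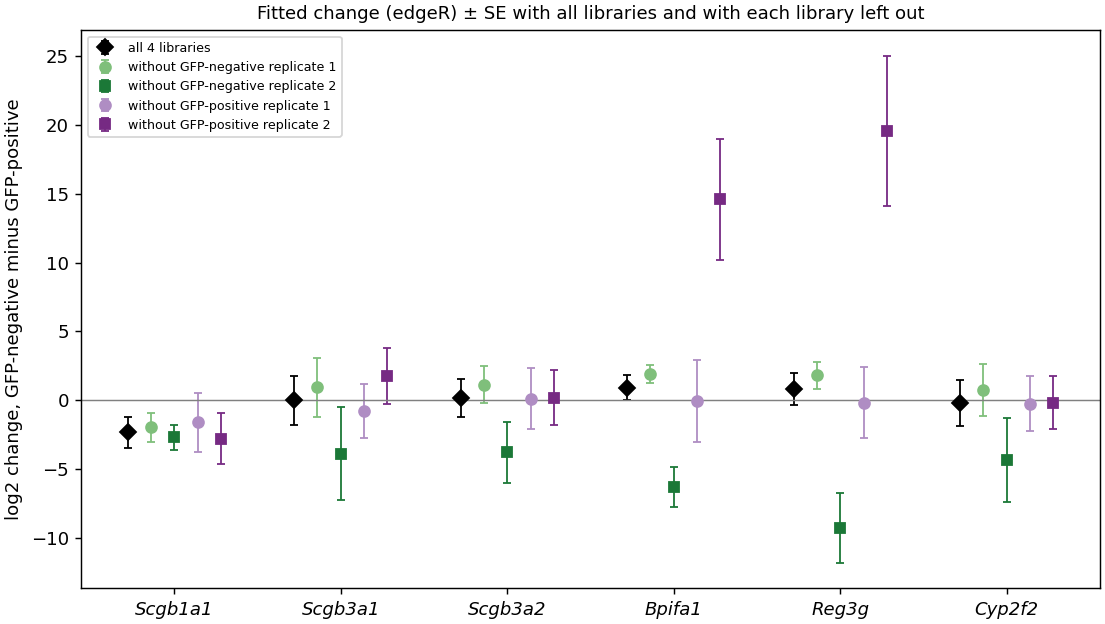
Fitted log2 change, GFP-negative minus GFP-positive, with its SE for each gene, with all 4 libraries (black) and with each library left out (colours). Scgb1a1, whose groups do not overlap, stays below 0 in every fit, between -2.80 and -1.61. Bpifa1 runs from -6.34 to 14.59 and Reg3g from -9.25 to 19.57.

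Few relatives of the 6 genes are in the table. Of 34 secretoglobin genes annotated as protein-coding in GENCODE M21, 4 are there, and the fourth, Scgb1c1, had 0.43 and 3.17 CPM in GFP-negative libraries with 0 counts in both GFP-positive libraries. Of 14 genes of the BPI fold family, whose members bind lipids, 2 are there. Bpifb1, the second of these, lies 41.6 kb from Bpifa1 on chromosome 2. It had 15.3 and 484 CPM in GFP-negative libraries and 0 and 134 CPM in GFP-positive libraries, high in the replicate 2 libraries like Bpifa1, and was not called (edgeR adjusted p = 1.0). Reg3g is the 1 gene present of the 7 Reg genes. Reg3b, the gene most similar to Reg3g in sequence, matched its transcript at 80.4% over 138 bases and is not in the table. Of 48 Cyp2 genes, 6 are there, among them Cyp2e1, a liver enzyme, at 0 counts in both GFP-negative libraries and 1970 and 0.82 CPM in GFP-positive libraries.

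Other products of secretory cells were not called in either direction: 0 of 18 tested genes passed, with 9 fitted above 0 and 9 below. Their median log2 change was 0.04, against 0.91 over all tested genes and 0.07 over the 6. Without GFP-positive replicate 1 it was -0.21, against 0.29 over all tested genes. It was -1.52 without GFP-negative replicate 2, against 0.74 over all tested genes, and 11.45 without GFP-positive replicate 2, against 9.95. Fits without that library set genes against GFP-positive replicate 1 alone, so where it has 0 counts the size depends on the small count that the fit adds, here and in the lists below. Of the 18, 15 had no counts in GFP-positive replicate 1, against 0 to 2 in each other library. Over all tested genes, 10502 of 16301 had none there. Haptoglobin, encoded by Hp and also made in liver, had 34.4 and 91.7 CPM in GFP-negative libraries and 899 and 68.0 CPM in GFP-positive libraries. Ltf, the iron-binding lactoferrin of mucosal fluids and neutrophils, had 3.88 and 58.7 CPM in GFP-negative libraries and 0 and 503 CPM in GFP-positive libraries. Wfdc2, a secreted protease inhibitor, had 142 and 103 CPM in GFP-negative and 0 and 317 CPM in GFP-positive libraries. The gel-forming mucin Muc5b had 2.85 and 5.32 CPM in GFP-negative and 0 and 4.14 CPM in GFP-positive libraries, and Muc5ac and Agr2, markers of goblet cells, are not among the symbols of the table.

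Enzymes of club cells were fitted below 0 for 14 of 20 tested genes and above 0 for 6, with 0 called. Their median log2 change was -1.17, against 0.91 over all tested genes. The sign of the median turned without GFP-positive replicate 2, where it was 0.95, with 10 above 0 and 10 below. It still lay below the median over all tested genes, which was 9.95 there. Without GFP-negative replicate 2 the median of the enzymes was -2.98, against 0.74 over all tested genes. Without GFP-positive replicate 1 it was -0.74, against 0.29. Mgst1, a microsomal glutathione transferase, had 15.2 and 117 CPM in GFP-negative libraries and 2615 and 161 CPM in GFP-positive cells, a log2 change of -4.40 (edgeR adjusted p = 1.0). Cbr2, a carbonyl reductase abundant in mouse lung, had 24.8 and 1380 CPM in GFP-negative and 41.8 and 855 CPM in GFP-positive libraries, high in the replicate 2 libraries. Gstm1, a cytosolic glutathione transferase also made in liver, had 37.1 and 244 CPM in GFP-negative and 1518 and 314 CPM in GFP-positive libraries. Prdx6, a peroxiredoxin, had 169 and 284 CPM in GFP-negative and 499 and 248 CPM in GFP-positive libraries. The summed level of these enzymes was 588 and 2504 CPM in GFP-negative libraries, against 7155 and 2510 CPM in GFP-positive libraries.

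Regulators of the secretory lineage gave 0 calls among 18 tested genes, with 11 fitted above 0, 7 below and a median log2 change of 0.70. That median depended on single libraries. It was -0.59 without GFP-negative replicate 1, against 0.4 over all tested genes, and 0.20 without GFP-positive replicate 1, against 0.29. It was 9.84 without GFP-positive replicate 2, against 9.95. Xbp1, a factor for the secretory load of the endoplasmic reticulum, had 205 and 80.3 CPM in GFP-negative libraries and 341 and 127 CPM in GFP-positive libraries. Cebpb, a factor of inflammatory and epithelial genes, had 52.6 and 63.0 CPM in GFP-negative and 77.4 and 213 CPM in GFP-positive libraries. Creb3l2, a membrane-bound factor of secretory pathway genes, had 4.61 and 1.74 CPM in GFP-negative and 252 and 1.58 CPM in GFP-positive libraries. Elf3, an epithelial ETS factor, had 215 and 12.1 CPM in GFP-negative and 0 and 20.6 CPM in GFP-positive libraries. Foxa2 and Nkx2-1 are named here, after their values were seen, because their letters were searched above. Foxa2 had 45.6 and 13.5 CPM in the GFP-negative and 0 and 40.8 CPM in GFP-positive libraries. Nkx2-1 had 21.5 and 3.50 CPM in the GFP-negative and 0 and 8.86 CPM in GFP-positive libraries. The part of these regulators in the levels of the 6 genes was not tested.

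Genes through which epithelium senses microbes and cytokines, among them those known to induce Reg3g, also gave 0 calls among 16 tested genes, with 7 fitted above 0, 9 below and a median log2 change of -0.24. The sign of this median, against 0.91 over all tested genes, was not stable. With DESeq2 size factors it was 0.087, against 1.12, and with library totals 0.50, against 1.33. Leaving out GFP-negative replicate 1 gave -1.88, against 0.4, and leaving out GFP-positive replicate 1 gave -0.86, against 0.29. The median was 0.46 without GFP-negative replicate 2, against 0.74 over all tested genes, and 11.01 without GFP-positive replicate 2, against 9.95. Tlr2, a receptor of bacterial lipoproteins found on myeloid cells as well, had 25.6 and 42.3 CPM in GFP-negative libraries and 1026 and 284 CPM in GFP-positive cells, a log2 change of -4.27 ± 1.95 (SE, edgeR adjusted p = 1.0). Il10rb, a chain of the receptors of IL-10 and IL-22, had 31.4 and 62.9 CPM in GFP-negative and 315 and 185 CPM in GFP-positive libraries. Stat3, the factor that IL-22 and IL-6 signals reach, had 293 and 27.7 CPM in GFP-negative and 135 and 67.2 CPM in GFP-positive libraries. Its part in the level of Reg3g was not tested. Nfkbiz, an induced regulator of defence genes, had 74.96 and 23.6 CPM in GFP-negative and 376 and 85.0 CPM in GFP-positive libraries.

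Markers of other lung cells moved between libraries too. The 6 secretory genes summed to 401 and 11087 CPM in GFP-negative libraries and to 3952 and 7156 CPM in GFP-positive libraries. Markers of alveolar type 2 cells, which make surfactant, summed to 142 and 2648 CPM in GFP-negative and 150 and 373 CPM in GFP-positive libraries, led by Sftpc at 82.4 and 2276 CPM in GFP-negative and 147 and 192 CPM in GFP-positive libraries and followed in mean level by Sftpd, Sftpa1 and Lyz1; 8 of the 11 had no counts in GFP-positive replicate 1. Markers of ciliated cells summed to 408 and 575 CPM in GFP-negative and 127 and 737 CPM in GFP-positive libraries, with 12 of 14 at 0 counts in GFP-positive replicate 1. Of the ciliated list Tubb4b, which many cells express, carried 354 and 290 CPM in GFP-negative and 0.32 and 422 CPM in GFP-positive libraries. Tppp3, a tubulin-binding protein of ciliated cells, had 20.2 and 128 CPM in GFP-negative and 127 and 136 CPM in GFP-positive libraries, so GFP-positive replicate 1 was not low for it. Dynlrb2 and Cfap126, with functions in cilia, were at 37.1 and 17.6 CPM in GFP-negative replicate 2 and at 33.1 and 44.6 CPM in GFP-positive replicate 2, against 0.70 and 1.07 CPM in GFP-negative replicate 1 and 0 counts in GFP-positive replicate 1. Basal cell markers summed to 56.4 and 70.6 CPM in GFP-negative and 0.51 and 330 CPM in GFP-positive libraries, with Icam1, Dapl1, Ngfr and Krt17 highest in mean CPM. Of these sums Icam1 carried 24.2 and 37.3 CPM in GFP-negative and 0 and 302 CPM in GFP-positive libraries. Dapl1 was also highest in GFP-positive replicate 2, while Krt17 and Ngfr were each highest in a GFP-negative library. Neuroendocrine markers summed to 5900 and 2557 CPM in GFP-negative and 4407 and 1547 CPM in GFP-positive libraries, in each group higher in the replicate 1 library, with Calca, Ddc, Resp18 and Uchl1 highest in mean CPM. Lymphocyte markers summed to 284 and 1322 CPM in GFP-negative and 0 and 622 CPM in GFP-positive libraries, with 8 of 8 at 0 counts in GFP-positive replicate 1, and Jchain, Cd79b, Cd79a and Nkg7 were highest. Of 13 surface and structural markers of club cells, a list that holds 4 of the 6 genes, 11 are in the table. Of these, 8 had counts in all 4 libraries, namely those 4 genes and the keratins Krt7, Krt8, Krt18 and Krt19. Cldn10, Upk3a and Krt15 had 0 counts in GFP-positive replicate 1. Krt8 and Krt7, keratins of simple epithelium, stood with Scgb1a1 and Scgb3a2 as the highest of that list. No gene of the alveolar, ciliated, basal, neuroendocrine, lymphocyte, neutrophil or endothelial lists was called by edgeR with all 4 libraries. The part of these cells in the levels of the 6 genes was not tested.

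**Figure D5:**
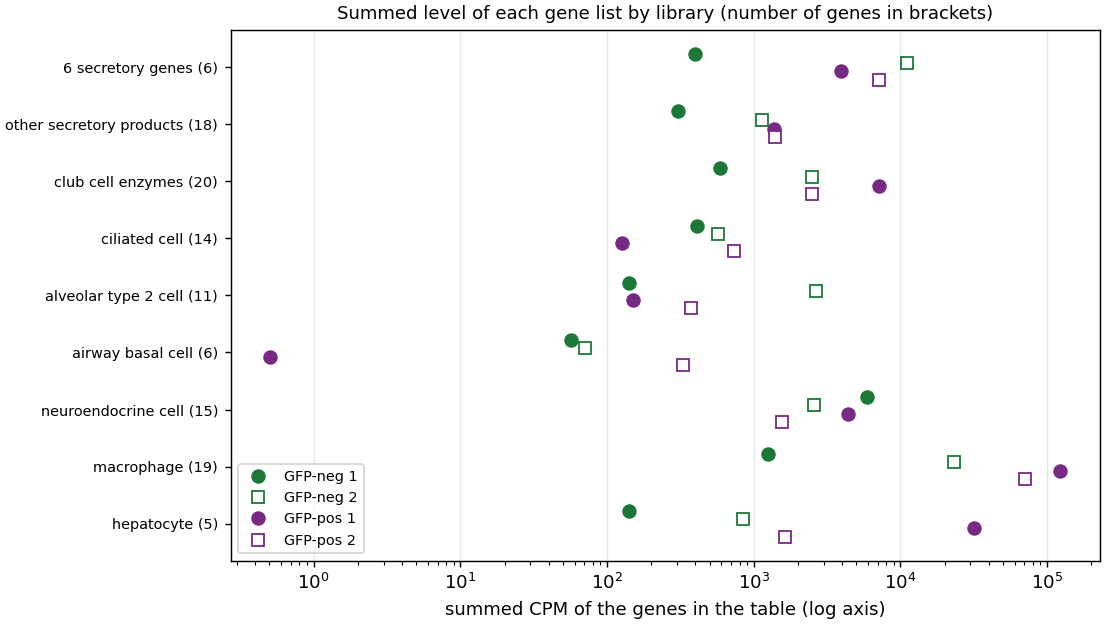
Summed CPM of the genes of each list on a log axis in the GFP-negative (green) and GFP-positive (purple) libraries; filled circles are replicate 1, open squares replicate 2, and the number of genes is in brackets. The 6 secretory genes sum to 401 CPM in GFP-negative replicate 1 and to 3952 to 11087 CPM in the other 3 libraries.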

How the data were processed

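RNA was measured in 2 GFP-negative and 2 GFP-positive libraries. Full-length cDNA, per the labels' protocols, came from a SMARTer kit (oligo(dT) priming, template switching), was amplified by PCR and read in pairs; without molecular identifiers, limits cover counting error only, and PCR from little RNA can multiply or lose single molecules. The authors deposited whole-number counts and FPKM per gene symbol, per the file headers; every symbol had counts in at least 2 libraries. Tools named in the submitters' processing notes are HISAT2 2.2.1, StringTie 2.1.6, cutadapt 1.9, edgeR and DESeq2, with mm10; which of them counted is not given in the sources used here.

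Counts were fitted with edgeR 4.0.16 in R 4.3.3 (filterByExpr with minimum count 10, TMM factors of 0.72 to 1.53, glmQLFit and glmQLFTest, group as the only term). Each SE is the size of the log2 change over the square root of F. The common biological coefficient of variation was 1.92. The scripts were tested on simulated data. Alternatives were a replicate block, 3 filters, 3 scalings, DESeq2 1.42.0, limma 3.58.1 (voom, and log2 FPKM with pseudocounts of 0.1, 1 and 5) and leaving out each library. Positions came from GENCODE M21 and similar transcripts from BLAST 2.17.0. From each list, called genes or else the 4 with the highest mean CPM are named. Genes of the alveolar type 1, neutrophil and endothelial lists are not named. Marco, Muc5b, Muc5ac, Agr2, Foxa2, Nkx2-1, Epcam and genes of the 6 genes' families are exceptions chosen after their values were seen. So are Krt18, Krt19, Cldn10, Upk3a and Krt15 of the club cell list. The members and lists were chosen with earlier results of these data known. Promoters of 4 of the 6 genes were matched in the RefSeq table; those of Scgb1a1 and Scgb3a2 are not shown.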

Additional observations from a re-analysis of the deposited data

How the results depend on the processing

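Scgb1a1 kept its negative sign under all 16 alternatives. As its groups do not overlap, those that leave out a library could hardly turn it. For the other 5 genes the sign turned under some. Scgb3a1 was at 0.0042 with DESeq2 size factors, 0.0043 in DESeq2's Wald test and 0.084 with library totals. Scgb3a2 was at -5.635 with upper quartile scaling, -2.20 in limma-voom and -0.81, -0.80 and -0.77 with limma on FPKM at pseudocounts 0.1, 1 and 5. Cyp2f2 was at 0.0065 with library totals. The causes were not tested. Leaving out 1 library gave log2 changes from -2.80 to -1.61 for Scgb1a1, -3.905 to 1.73 for Scgb3a1, -3.79 to 1.11 for Scgb3a2, -6.34 to 14.59 for Bpifa1, -4.35 to 0.75 for Cyp2f2 and -9.25 to 19.57 for Reg3g.

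The count of genes called over the table, 16 in the reported fit, was 0 with only genes with counts in all 4 libraries (5625 genes, Reg3g not among them), 0 with upper quartile scaling, 42 in DESeq2's Wald test, 4 in limma-voom and 0 in limma on log2 FPKM with each pseudocount. It ran from 1 to 7601 when 1 library was left out. Of the genes of the 4 other lists, 0 to 35 were called when 1 library was left out, and 0 in the other settings. The median of all tested genes moved with scaling, to 1.12 with DESeq2 size factors, 0.43 with upper quartile and 1.33 with library totals, where TMM gave 0.91.

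Same-numbered libraries share only a number in the labels, and their deviations from the group means correlated at -0.073 across 16301 genes. With the replicate block 21 genes were called and 0 of the 6, and the log2 change was -2.26 for Scgb1a1, -0.997 for Scgb3a1, -1.36 for Scgb3a2, 4.03 for Bpifa1, -1.82 for Cyp2f2 and 3.59 for Reg3g. With 2 libraries per group and a biological coefficient of variation of 1.92, a difference that missed the threshold is not shown to be absent.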
